A study of Mus musculus with 12 samples.

Results

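The levels described here are those of 10 mouse genes that carry long-chain fatty acids into mitochondria and run beta-oxidation after its dehydrogenase step: Cpt1a, Slc25a20, Cpt2, Echs1, Hadh, Hadha, Hadhb, Eci1, Decr1 and Etfdh. They were chosen by their place in the pathway, with earlier results of these data known, and found by NCBI Gene number among 27179 genes. Etfdh was counted with them, although its product takes up electrons from the dehydrogenases. Of the members, 10 of 10 are among the 14972 genes tested, those at 1 TPM or more (transcripts scaled to a fixed library total) in at least 3 of 12 libraries. Other genes of the pathway, its regulators and kidney cell markers were read beside them from lists.

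RNA came from whole kidneys of mice 8 to 12 weeks old, 3 in each of 4 groups. The labels give their strain background as mixed, whereas the study's methods describe FAN1KO mice crossed for 5 or more generations to a single inbred strain, and no label tells strain or sex apart between libraries. Wild-type mice and FAN1KO mice (γGT1-Cre;Fan1-/-) received either saline or cisplatin, a DNA crosslinking drug, at 2 mg/kg weekly by intraperitoneal injection for 5 weeks. Fan1 encodes a nuclease that repairs crosslinked DNA, and by the study's methods the Ggt1 promoter drives its deletion in the proximal tubule, so other kidney cells of FAN1KO mice keep the gene. The comparisons ask how the 2 genotypes differ under each treatment and whether cisplatin acts differently on them.

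Fan1 itself was at 3.80, 3.35 and 1.98 TPM with saline and 2.33, 3.57 and 3.32 TPM with cisplatin in wild-type kidneys, against 1.17, 1.54 and 2.28 TPM with saline and 2.72, 3.51 and 1.55 TPM with cisplatin in FAN1KO kidneys. The genotypes overlapped under both treatments, with exact permutation p = 0.2 with saline and 0.6 with cisplatin, so the summed transcript level does not check the genotype labels. Proximal tubule markers were abundant in the saline-treated wild-type kidneys, where 17 of them summed to 12976, 12185 and 10133 TPM. Each group held 1 library with Y-linked expression, with a mean log2(TPM + 1) over 4 Y-linked genes of 3.46 in wild-type saline 3, 3.72 in FAN1KO saline 1, 3.72 in wild-type cisplatin 1 and 3.93 in FAN1KO cisplatin 3. The other libraries were at 0.10 or lower, and a fit of the other 8, added after seeing the data, is given for some results. Whole reads could be recovered from the TPM values and gave 37196197 to 82935410 reads per library. Each of the 10 genes had at least 1320 reads in each library, so counting error is small beside most of the spreads between mice. It is less so where a group lies close together, as for Slc25a20 in cisplatin-treated FAN1KO kidneys (82.1 ± 2.11 TPM, mean ± SD, from 3057, 3374 and 3165 reads).

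TPM is a share of a library, and these shares shifted with the groups. Over the 14972 genes, the median log2 fold change of FAN1KO against wild-type kidneys was 0.24 under cisplatin, and it was -0.01 after each library was divided by its median ratio to the geometric mean of all libraries. The same median was -0.04 for FAN1KO against wild-type with saline, 0.37 for cisplatin against saline in FAN1KO kidneys and 0.08 in wild-type kidneys. Fold changes below are on log2(TPM + 1) from limma with their standard errors, n = 3 mice a group, and a gene is said to have risen or fallen where its Benjamini-Hochberg adjusted p over all genes tested was under 0.05. For many of them a value after median-ratio scaling is given too.

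Long-chain fatty acids are activated to acyl-CoA in the cytosol and cannot cross the inner mitochondrial membrane in that form. CPT1 exchanges CoA for carnitine, the carrier SLC25A20 moves acylcarnitine inward in exchange for free carnitine, and CPT2 restores acyl-CoA in the matrix. There, acyl-CoA dehydrogenases make an enoyl-CoA, and hydration, a further oxidation and thiolysis follow until acetyl-CoA is released. The proximal tubule reabsorbs most of the filtered load and relies on this pathway for much of its ATP.

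The promoters of 9 of the 10 genes were read from RefSeq as windows of 300 bases, from 250 before to 50 after the start, in the mm10 assembly. No window was at hand for Decr1. The Cpt1a window belongs to a transcript start 975 bases inside the annotated gene, and its first start was not searched. Windows are shown because members with and without a call under cisplatin can be set side by side. Capitals mark 3 motifs searched on both strands: the GC box with the letters GGGCGG, the promoter element CCAAT, and the hexamer AGGTCA that nuclear receptors bind.
Hadh, chr3:131272052-131272351, minus strand: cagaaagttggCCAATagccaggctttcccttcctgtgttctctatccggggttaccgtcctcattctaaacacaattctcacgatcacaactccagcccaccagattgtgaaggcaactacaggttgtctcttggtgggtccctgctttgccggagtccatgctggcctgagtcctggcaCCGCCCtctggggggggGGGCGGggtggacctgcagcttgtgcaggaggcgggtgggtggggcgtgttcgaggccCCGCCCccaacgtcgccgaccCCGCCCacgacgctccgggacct
Echs1, chr7:140116372-140116671, minus strand: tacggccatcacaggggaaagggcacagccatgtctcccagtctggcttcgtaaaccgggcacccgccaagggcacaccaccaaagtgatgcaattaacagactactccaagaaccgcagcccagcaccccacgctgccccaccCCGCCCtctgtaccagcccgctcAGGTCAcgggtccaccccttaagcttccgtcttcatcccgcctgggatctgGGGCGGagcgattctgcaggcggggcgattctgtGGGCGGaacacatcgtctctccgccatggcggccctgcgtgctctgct
Hadhb, chr5:30155003-30155302, plus strand: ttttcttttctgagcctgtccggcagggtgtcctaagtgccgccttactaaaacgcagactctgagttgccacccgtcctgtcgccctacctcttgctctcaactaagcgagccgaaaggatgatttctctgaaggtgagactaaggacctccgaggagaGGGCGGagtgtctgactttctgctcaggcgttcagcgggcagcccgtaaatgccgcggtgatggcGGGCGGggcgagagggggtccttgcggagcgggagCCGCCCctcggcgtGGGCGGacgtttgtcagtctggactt
Cpt1a, chr19:3323051-3323350, plus strand: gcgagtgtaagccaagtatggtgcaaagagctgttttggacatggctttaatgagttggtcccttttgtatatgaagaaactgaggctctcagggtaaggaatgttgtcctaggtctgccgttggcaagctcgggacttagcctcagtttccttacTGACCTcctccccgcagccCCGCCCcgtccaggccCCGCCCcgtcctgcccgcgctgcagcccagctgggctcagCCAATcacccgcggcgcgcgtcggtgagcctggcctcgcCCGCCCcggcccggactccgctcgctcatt
The GC box was in 9 of 9 windows, against 35.7% of 32851 promoter windows of the same length. The CCAAT element was in 3, those of Cpt1a, Hadh and Etfdh (37.4% of all windows), and AGGTCA in 2, those of Cpt1a and Echs1 (16.3%). The estrogen-related receptor element TCAAGGTCA (0.423% of all windows) and the nuclear receptor direct repeat 1 (0.0396%), both of which contain the hexamer, matched in 0 of 9. The 9 windows held 57.3% to 63.7% G and C, beside a median of 52.7% over all windows. Hadha and Hadhb are transcribed away from each other from starts 273 bases apart, so their windows overlap and the Hadhb window holds most of the sequence between them. Hexamer and CCAAT element were present in Cpt1a, which was not called, as well as in Echs1 or Hadh, which fell.

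With cisplatin, 5 of the 10 genes fell in FAN1KO relative to wild-type kidneys: Hadh, Echs1, Cpt2, Eci1 and Etfdh. Of all genes tested, 4.37% fell and 19.6% rose. Of the members, 0 rose (limma; 0 higher at an unadjusted p under 0.05, and 0 called higher by voom), and voom called 6 lower. The members' median log2 fold change was -0.47, beside 0.24 for all genes, and -0.75 beside -0.01 after scaling. Of all calls 81.8% were higher, a share that was 54.6% after scaling and 71.1% with mitochondrially encoded genes left out. Less RNA per cell and fewer cells of a type cannot be told apart in whole kidney.

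**Figure D1:**
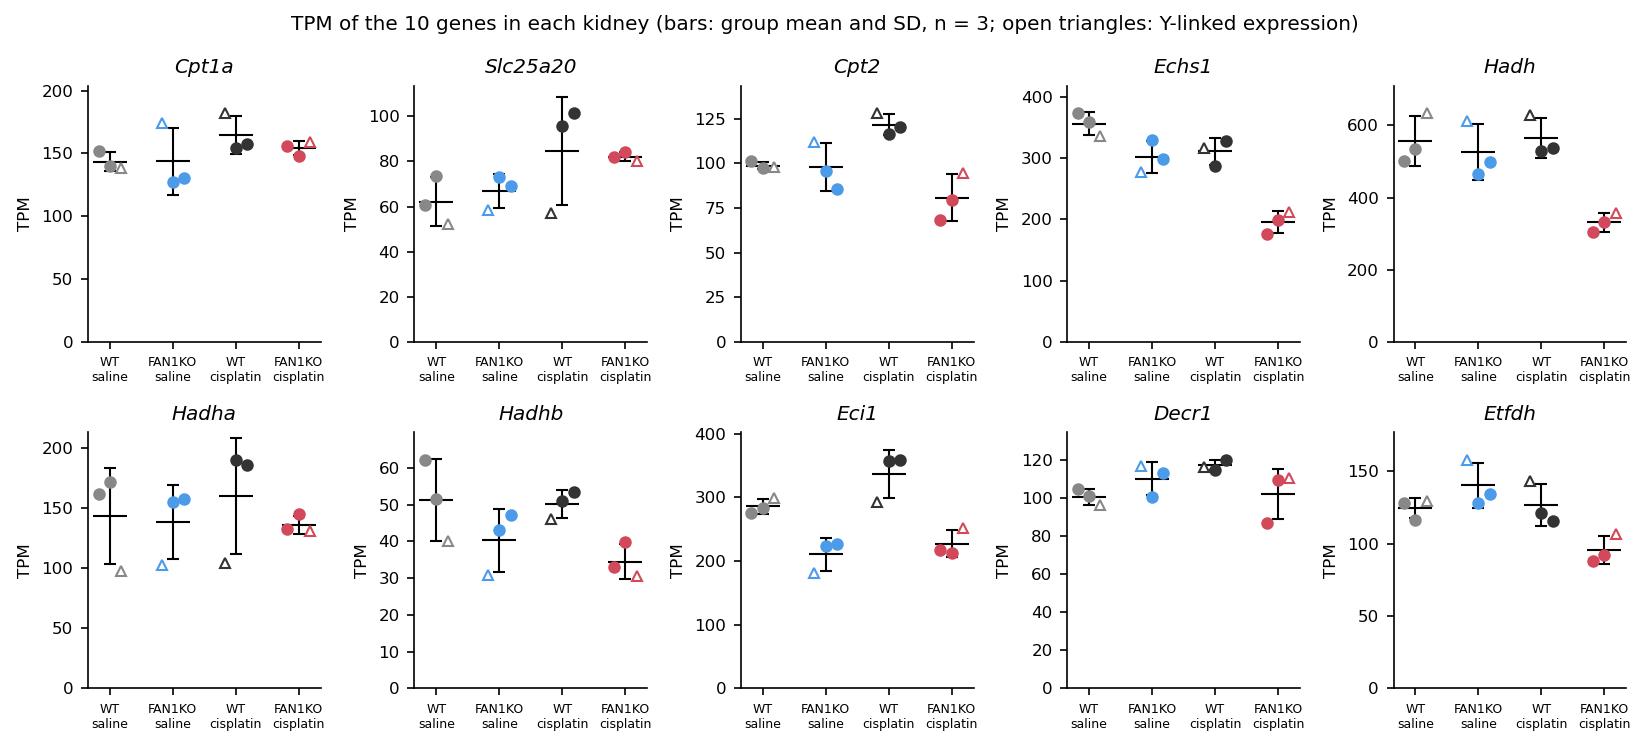
TPM of each of the 10 genes by group, 1 point per kidney, with the group mean and SD (n = 3). Open triangles are the 4 libraries with Y-linked expression. Hadh in cisplatin-treated FAN1KO kidneys lies at 305, 332 and 357 TPM, under the other 9 kidneys, while Cpt1a and Slc25a20 overlap between genotypes under cisplatin.

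The carnitine shuttle was not uniform. Cpt1a encodes the liver-type CPT1 of the outer membrane, the step that malonyl-CoA inhibits, and was at 152, 139.6 and 139 TPM with saline and 182, 155 and 158 TPM with cisplatin in wild-type kidneys, against 174, 127 and 130.2 TPM with saline and 156, 148 and 159 TPM with cisplatin in FAN1KO kidneys. Neither treatment separated the genotypes, and with cisplatin the fold change was -0.09 ± 0.12 (adjusted p = 0.624) or -0.38 after scaling (adjusted p = 0.277). Slc25a20, the carnitine-acylcarnitine carrier of the inner membrane, was at 60.5, 73.7 and 52.1 TPM with saline and 57.2, 95.7 and 101 TPM with cisplatin in wild-type kidneys, against 58.4, 72.9 and 68.9 TPM with saline and 82.0, 84.3 and 80.1 TPM with cisplatin in FAN1KO kidneys. Wild-type cisplatin 1, at 57.2 TPM, lay apart from its group, whose other libraries were higher than any other kidney. Between the cisplatin-treated genotypes the fold change of Slc25a20 was -0.0012 ± 0.20 (adjusted p = 0.998), and it ranged from -0.29 to 0.15 over the alternatives run, so its sign is not settled. Cpt2, which rebuilds acyl-CoA on the matrix side, was at 101, 97.4 and 97.8 TPM with saline and 128, 117 and 120.3 TPM with cisplatin in wild-type kidneys, against 112, 95.6 and 85.6 TPM with saline and 68.2, 79.6 and 94.5 TPM with cisplatin in FAN1KO kidneys. All 3 cisplatin-treated FAN1KO values lie under the wild-type ones, with a fold change of -0.60 ± 0.13 (adjusted p = 0.00919; exact permutation p = 0.1, the smallest that 3 against 3 can give). The mean fell by 33.6%, and the scaled fold change was -0.88 (adjusted p = 0.0276).

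Of the matrix steps, hydration of short-chain enoyl-CoA is the work of crotonase, encoded by Echs1. Its transcript was at 373, 359.9 and 336 TPM with saline and 317, 287 and 329 TPM with cisplatin in wild-type kidneys, against 277, 330.3 and 298 TPM with saline and 176, 199 and 212 TPM with cisplatin in FAN1KO kidneys. The 3 cisplatin-treated FAN1KO kidneys were lower than the other 9, and the saline-treated FAN1KO kidneys lay under the saline-treated wild-type ones. With cisplatin its mean fell by 37.1%, a fold change of -0.67 ± 0.10 (adjusted p = 0.00225) or -0.96 after scaling (adjusted p = 0.00401). The gene overlaps Paox, which lies beside it, by 687 bases, and Paox was at 2.23 to 6.91 TPM. Cpt1a overlaps the long non-coding gene Gm36532 by 4622 bases, and Hadhb and Decr1 overlap a microRNA gene each, Mir1960 and Mir6400.

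Hadh, the short-chain 3-hydroxyacyl-CoA dehydrogenase, was the most abundant of the 10 in each group. It was at 501, 535 and 633 TPM with saline and 629.8, 528 and 538 TPM with cisplatin in wild-type kidneys, against 613, 465 and 498 TPM with saline and 305, 332 and 357 TPM with cisplatin in FAN1KO kidneys. Again the 3 cisplatin-treated FAN1KO kidneys stood under the other 9. Its mean fell by 41.4%, a fold change of -0.77 ± 0.14 (adjusted p = 0.00394), the largest of the 10, and -1.06 after scaling (adjusted p = 0.0214).

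Hadha and Hadhb encode the alpha and beta subunits of the trifunctional protein, which performs hydration, oxidation and thiolysis of long-chain substrates at the inner membrane. Hadha was at 161, 171 and 97.8 TPM with saline and 104, 189.9 and 186 TPM with cisplatin in wild-type kidneys, against 102, 155 and 157 TPM with saline and 132, 145 and 130.5 TPM with cisplatin in FAN1KO kidneys. The 3 lowest values were libraries with Y-linked expression, 1 in each group other than cisplatin-treated FAN1KO, where the Y-linked library was at 130.5 TPM beside 132 and 145 TPM. The fold change of Hadha under cisplatin was -0.18 ± 0.27 (adjusted p = 0.656), or -0.47 after scaling (adjusted p = 0.0982). In the 8 libraries without Y-linked expression, a setting chosen after seeing the data, it was -0.44 (adjusted p = 0.00768), and over the other alternatives the adjusted p reached 0.943. Hadhb, which shares its promoter region with Hadha, was at 62.1, 51.5 and 40.0 TPM with saline and 46.0, 50.9 and 53.4 TPM with cisplatin in wild-type kidneys, against 30.7, 43.0 and 47.0 TPM with saline and 33.0, 39.7 and 30.6 TPM with cisplatin in FAN1KO kidneys. The cisplatin-treated groups did not overlap (exact permutation p = 0.1), but the fold change of -0.53 ± 0.19 missed the threshold (adjusted p = 0.0626). After scaling it was -0.81 (adjusted p = 0.0027), and Hadhb passed under 7 of 22 alternatives.

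The ratio of Hadha to Hadhb TPM within a library does not depend on scaling. It was 2.60, 3.32 and 2.44 in wild-type kidneys with saline, 3.33, 3.61 and 3.34 in FAN1KO kidneys with saline, 2.26, 3.73 and 3.48 in wild-type kidneys with cisplatin and 4.00, 3.64 and 4.27 in FAN1KO kidneys with cisplatin. The mean log2 ratio was 0.31 higher in FAN1KO than in wild-type kidneys with saline, where the groups did not overlap (exact permutation p = 0.1), and 0.36 higher with cisplatin, where they did (exact permutation p = 0.2). The latter rests on wild-type cisplatin 1: without that library it was 0.14, and in the 8 libraries without Y-linked expression it was 0.084. With saline the 8 libraries gave 0.24. Between treatments it was 0.21 higher with cisplatin in FAN1KO kidneys (exact permutation p = 0.1) and 0.16 higher in wild-type kidneys (exact permutation p = 0.7), or 0.14 and 0.29 in the 8 libraries. The wild-type difference depended on single libraries, at 0.021 without wild-type cisplatin 2 and 0.38 without wild-type cisplatin 1. The smallest p for 3 against 3 is 0.1, so none of these differences could pass 0.05.

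Eci1 and Decr1 encode auxiliary enzymes that unsaturated fatty acids need: an isomerase that moves a double bond and a reductase that removes 1 of a conjugated pair. Eci1 was at 276, 283 and 298 TPM with saline and 293, 358 and 359 TPM with cisplatin in wild-type kidneys, against 181, 224 and 226 TPM with saline and 217, 213 and 252 TPM with cisplatin in FAN1KO kidneys. FAN1KO kidneys were lower than wild-type kidneys under either treatment, with no overlap. Under cisplatin Eci1 fell by 32.5%, a fold change of -0.56 ± 0.12 (adjusted p = 0.00942) or -0.85 after scaling (adjusted p = 0.00508). Decr1 was at 104, 101 and 96.3 TPM with saline and 116, 115 and 119.8 TPM with cisplatin in wild-type kidneys, against 117, 100.3 and 113 TPM with saline and 86.8, 109 and 110.1 TPM with cisplatin in FAN1KO kidneys. Its cisplatin-treated groups did not overlap either, since the wild-type values lie close together, but the fold change of -0.20 ± 0.11 was small (adjusted p = 0.182), and it was -0.49 after scaling (adjusted p = 0.106).

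Etfdh encodes the flavoprotein dehydrogenase that passes electrons from the acyl-CoA dehydrogenases to ubiquinone. Its level was 128, 116 and 129.5 TPM with saline and 143, 121 and 115 TPM with cisplatin in wild-type kidneys, against 158, 128 and 134 TPM with saline and 87.9, 92.4 and 107 TPM with cisplatin in FAN1KO kidneys. The cisplatin-treated FAN1KO kidneys were the lowest 3 of the 12. The mean fell by 24.4%, a fold change of -0.40 ± 0.12 (adjusted p = 0.0344). This call is the least secure of the 5, since it passed under 15 of 22 alternatives, and the adjusted p was 0.0694 after scaling (fold change -0.69), 0.123 without wild-type cisplatin 1 (fold change -0.31) and 0.132 without FAN1KO cisplatin 1 (fold change -0.34). The 3′ neighbour Ppid overlaps Etfdh by 23 bases and was at 23.9 to 34.2 TPM.

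The mean levels kept much of one order across groups. In wild-type kidneys with saline, Hadh (556 ± 68.6 TPM, mean ± SD) stood above Echs1 (356 ± 18.9) and Eci1 (286 ± 11.6). Hadha (144 ± 39.9) and Cpt1a (143 ± 7.63) followed and did not differ beyond their spread, and Etfdh (125 ± 7.10) lay under the values of Cpt1a but among those of Hadha. Decr1 (101 ± 4.11) and Cpt2 (98.7 ± 2.02) were level with each other, and Slc25a20 (62.1 ± 10.9) and Hadhb (51.2 ± 11.1) were lowest, with overlapping values. In FAN1KO kidneys with cisplatin, Hadh (331 ± 26.0 TPM) was still highest and Hadhb (34.4 ± 4.75 TPM) lowest. There, Cpt2 (80.8 ± 13.2) overlapped with Slc25a20 (82.1 ± 2.11), and the lowest Eci1 value (213) lay next to the highest Echs1 value (212).

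**Figure D2:**
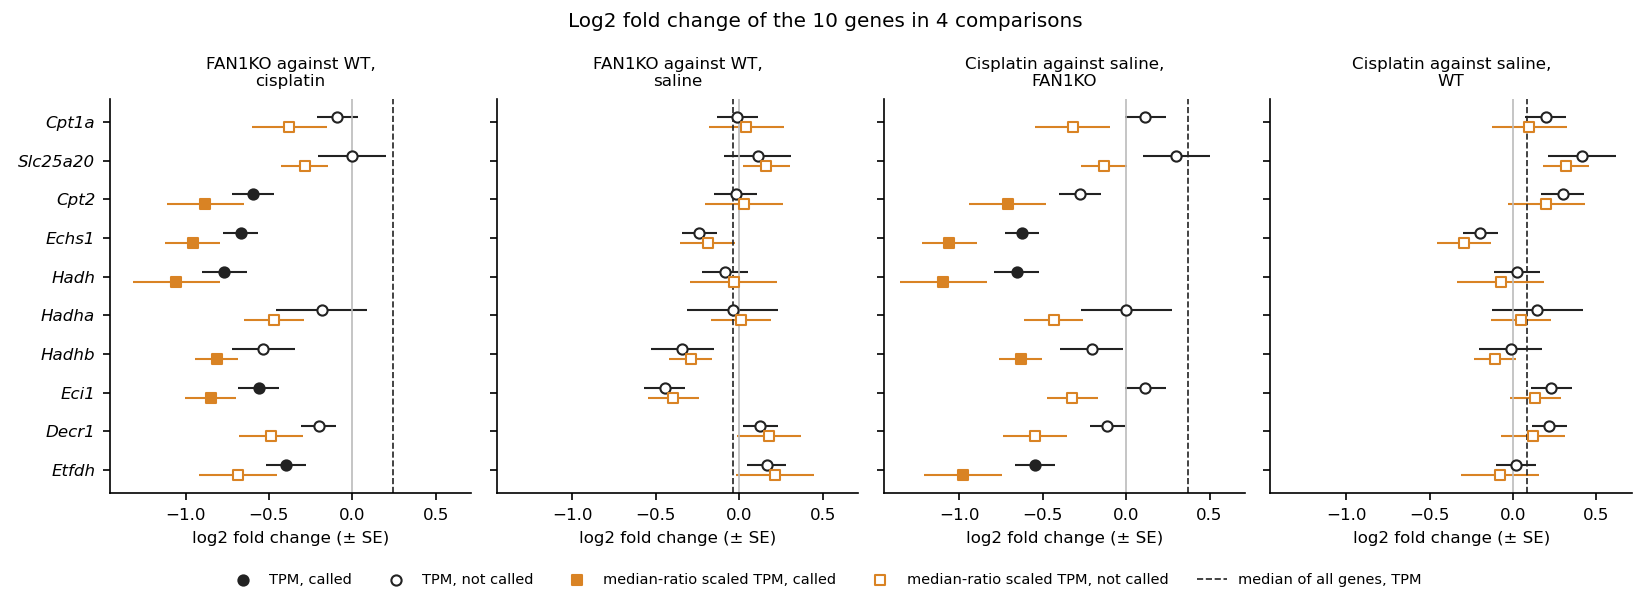
Log2 fold change with its standard error for each of the 10 genes in 4 comparisons, on TPM (circles) and after median-ratio scaling (squares). Filled symbols passed an adjusted p of 0.05, and the dashed line is the median of all genes on TPM. Under cisplatin Hadh (-0.77) and Echs1 (-0.67) lie farthest to the left, and with saline 0 of the 10 are filled (limma; 2 lower at an unadjusted p under 0.05).

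With saline, where the comparison shows what the genotype does without the drug, 0 of the 10 genes fell and 0 rose in FAN1KO against wild-type kidneys (limma; 2 lower and 0 higher at an unadjusted p under 0.05; 0 in either direction by voom). Of all genes, 0.427% fell and 0.341% rose, and the share of calls that were higher was 44.3%, or 54.4% after scaling. The members' median fold change was -0.03, or 0.02 after scaling and -0.12 in the 8 libraries without Y-linked expression. The isomerase gene Eci1 had the largest difference, at -0.45 ± 0.12 (adjusted p = 0.196; exact permutation p = 0.1), a mean -26.4% from wild-type, with no overlap. Hadhb followed at -0.34 ± 0.19 (adjusted p = 0.743), with overlap, and Echs1 was at -0.24 ± 0.10 (adjusted p = 0.56) without overlap, and the other 7 genes lay between -0.09 and 0.16.

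Cisplatin against saline in FAN1KO kidneys gave 3 falls among the 10 genes, where 4.90% of all genes fell and 34.9% rose. Hadh had a fold change of -0.66 ± 0.14 (adjusted p = 0.00422). The mean of Echs1 fell by 35.2% (-0.62 ± 0.10, adjusted p = 0.0015), and that of Etfdh fell by 31.8% (-0.55 ± 0.12, adjusted p = 0.00529). Each of these 3 passed under 22 of 22 alternatives. Of the members 0 rose (limma; 0 higher at an unadjusted p under 0.05, 0 by voom), and Cpt1a was called in 1 of 22 alternatives, the 8 libraries without Y-linked expression (0.24, adjusted p = 0.0425). Slc25a20 was higher in all 3 cisplatin-treated kidneys than in the saline-treated ones, at 0.30 ± 0.20 (adjusted p = 0.254). The members' median was -0.16 beside 0.37 for all genes, and -0.59 beside -0.01 after scaling. Scaling matters most in this comparison: the share of all calls that were higher went from 87.7% to 53.3%. With scaling, Cpt2 (-0.71, adjusted p = 0.042) and Hadhb (-0.63, adjusted p = 0.0055) also fell. The fold changes of Cpt1a (0.12), Slc25a20 (0.30), Eci1 (0.11) and Hadha (0.00033) turned negative, at -0.32, -0.13, -0.32 and -0.44.

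In wild-type kidneys, 0 of the 10 genes fell and 0 rose with cisplatin (limma; 0 lower and 1 higher, Cpt2, at an unadjusted p under 0.05; 0 by voom). Of all genes, 0% fell (limma; 67 genes at an unadjusted p under 0.05, 0 called by voom) and 0.0601% rose. The median of the members was 0.17, or 0.07 after scaling. The carrier Slc25a20 had the largest fold change (0.41 ± 0.20), with overlapping groups. On unscaled TPM, Cpt2 (0.30 ± 0.13), Decr1 (0.22 ± 0.11) and Cpt1a (0.20 ± 0.12) were higher in each cisplatin-treated kidney than in each saline-treated one. Echs1 (-0.20 ± 0.10) was lower in each. After median-ratio scaling the groups overlapped for each of these genes, and Cpt1a was at 0.10. Over the alternatives, fold changes ran from 0.20 to 0.33 for Cpt2, 0.12 to 0.24 for Decr1 and -0.29 to -0.14 for Echs1. How many of all genes separate in this way was not counted. For Hadh and Etfdh the fold changes were 0.03 and 0.02, and both turned negative after scaling (-0.07 and -0.08).

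The difference between these 2 effects of cisplatin, the genotype by treatment interaction, passed for 0 of the 10 genes (limma; 5 lower and 0 higher at an unadjusted p under 0.05; 0 by voom). Over all genes it passed in 1.02% downward and 5.22% upward, with 83.6% of calls upward, or 67.0% after scaling. The members' median was -0.26, against 0.28 for all genes, and -0.60 against -0.01 after scaling, where 0 passed as well (limma; 7 lower at an unadjusted p under 0.05). Hadh came closest at -0.68 ± 0.19 (adjusted p = 0.0611), then Etfdh at -0.56 ± 0.17 (adjusted p = 0.0696) and Cpt2 at -0.57 ± 0.18 (adjusted p = 0.0819). After scaling the 3 were at -1.02, -0.90 and -0.91 (adjusted p = 0.151, 0.158 and 0.151). With Y-linked expression as a covariate, 4 genes passed: Hadh (adjusted p = 0.00222), Etfdh (0.00332), Cpt2 (0.0115) and Echs1 (0.0431). In the 8 libraries without it, 4 passed as well, with Eci1 (adjusted p = 0.0377) in place of Echs1. Leaving out 1 mouse at a time passed Hadh without wild-type saline 3, and Cpt2 and Etfdh without FAN1KO cisplatin 3, both of them libraries with Y-linked expression. On all 12 libraries without that covariate, a cisplatin effect that differs between the genotypes is not shown for any of the 10.

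The summed TPM of the 10 genes put the kidneys on 1 scale. It was 1920.0, 1929 and 1919.8 in wild-type kidneys with saline, 1824, 1741 and 1759 in FAN1KO kidneys with saline, 2016, 2017 and 2079.6 in wild-type kidneys with cisplatin and 1344, 1441 and 1533 in FAN1KO kidneys with cisplatin. On this unscaled sum the 4 groups did not overlap, and the mean of cisplatin-treated FAN1KO kidneys was -29.4% from that of cisplatin-treated wild-type kidneys. After median-ratio scaling the sums were 1887, 1956 and 2394 in wild-type and 2379, 1759 and 1848 in FAN1KO kidneys with saline, and 2359.5, 1873 and 1941 and 994, 1180.4 and 1405 with cisplatin. Only the cisplatin-treated FAN1KO kidneys then stood apart, and the other 3 groups overlapped. Without Hadh, the unscaled sums of the wild-type groups overlapped as well. The members were chosen with results known, so the sum has no test. The 17 proximal tubule markers, with Miox the most abundant, summed to 10426, 10428 and 11119.9 TPM in cisplatin-treated wild-type kidneys and 3366, 3943 and 6578 TPM in cisplatin-treated FAN1KO kidneys, and 10 of the 17 fell. As a percentage of that marker sum, the 10 genes stood at 14.8, 15.8 and 18.9 in wild-type kidneys with saline, 13.8, 13.6 and 11.3 in FAN1KO kidneys with saline and 19.3, 19.3 and 18.7 in wild-type kidneys with cisplatin. In cisplatin-treated FAN1KO kidneys they stood at 39.9, 36.5 and 23.3, higher than in the other 9 kidneys. The summed TPM of the markers was therefore lower by a larger share than that of the 10 genes, a difference that was not tested.

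**Figure D3:**
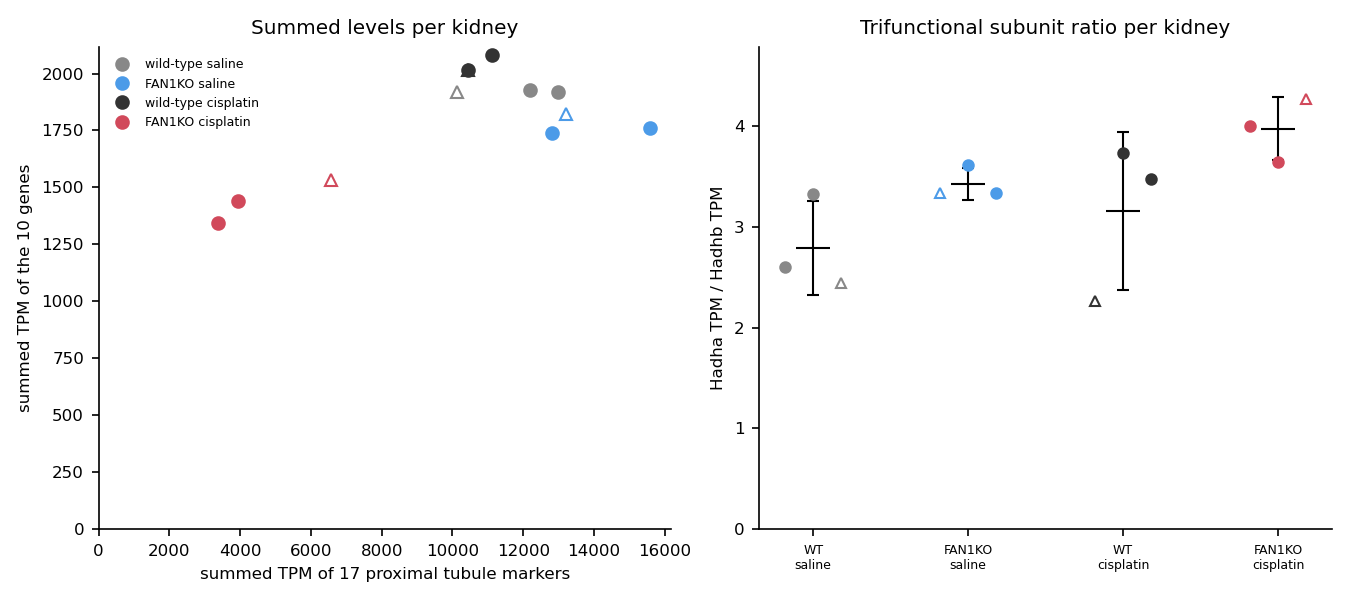
Left, summed TPM of the 10 genes against the summed TPM of 17 proximal tubule markers, 1 point per kidney; right, Hadha TPM over Hadhb TPM by group with mean and SD (n = 3). Open triangles are libraries with Y-linked expression. Cisplatin-treated FAN1KO kidneys are lowest on both axes of the left plot, with sums of 1344, 1441 and 1533 TPM.

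Markers of other cell types were read in the same libraries, beside 19.6% of all genes higher and 4.37% lower. Of 8 injured-tubule markers, 8 rose in FAN1KO against wild-type kidneys, both cisplatin-treated, and the list, led by Spp1, summed to 513, 2323 and 2265 TPM in wild-type and 12703, 9322 and 8005 TPM in FAN1KO kidneys. The erythroid list, led by Hba-a2, went from 2318, 4631 and 6571 TPM to 6.56, 13.2 and 73.3 TPM, and 4 of 4 tested of 5 listed fell. Among macrophage markers, led by Lyz2, 1 of 8 rose, a share under that of all genes, with sums of 68.7, 223 and 179 TPM and 469.5, 225 and 191 TPM. Principal cell markers, led by Aqp2, had 3 of 6 rise, from 543, 962 and 949 TPM to 1293, 1696 and 1944 TPM. In the thick ascending limb list, led by Umod, 2 of 5 fell, and in the distal convoluted tubule list, led by Slc12a3, 1 of 4 fell. The lymphocyte list, led by Cd3g and with Ms4a1 at 0 in a library, had 1 of 6 tested of 8 rise, also a share under that of all genes. Podocyte (5 markers, led by Podxl), endothelial (7, led by Plvap), intercalated cell (6, led by Atp6v1g3) and fibroblast lists (7, led by Acta2) had 0 calls in limma and 0 at an unadjusted p under 0.05. The same held for adipose markers, 4 tested of 6 and led by Cfd, with Adipoq, Plin1, Lep and Ucp1 at 0 in a library. The absence of a call does not show that these levels were unchanged. Median log2 fold changes were -0.01 for podocyte, -0.97 for endothelial, 0.36 for intercalated cell, -0.27 for fibroblast and -1.53 for adipose lists. Endothelial sums spread widely, at 69.4, 365 and 218 TPM in wild-type and 158, 96.6 and 40.3 TPM in FAN1KO kidneys. Mitochondrially encoded transcripts made up 21.2, 18.6 and 18.3% of TPM in cisplatin-treated wild-type kidneys and 10.2, 13.7 and 16.7% in FAN1KO ones. For cisplatin against saline in FAN1KO kidneys, 4.90% of all genes fell and 34.9% rose. There, 12 of 17 proximal tubule and 4 of 4 tested erythroid markers fell. In the same comparison 8 of 8 injured-tubule, 5 of 8 macrophage and 3 of 6 principal cell markers rose. The thick ascending limb list had 2 lower and 1 higher of 5. Distal convoluted tubule, podocyte and endothelial lists had 1 lower each, and the intercalated cell list had 1 higher of 6, a share under that of all genes. The part of these shifts in the fall of the 10 genes was not tested.

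The rest of the pathway showed where the members stand. Of 14 acyl-CoA dehydrogenase and electron transfer genes, 10 fell in FAN1KO against wild-type kidneys, both cisplatin-treated (median -0.67; 10 after scaling), and 0 rose (limma; 0 higher at an unadjusted p under 0.05). Acadm, the medium-chain dehydrogenase, was at 1033, 1249.9 and 1284 TPM in wild-type and 379, 403 and 465 TPM in FAN1KO kidneys (fold change -1.51 ± 0.13, adjusted p = 8.84e-05). The very long-chain enzyme gene Acadvl was at 326, 363 and 367 TPM and 166, 67.1 and 51.6 TPM (-2.06 ± 0.54, adjusted p = 0.0205). With saline Acadvl stood at 304, 338 and 327 TPM and 179, 44.3 and 38.5 TPM. This difference was as large and was not called (-2.24 ± 0.54, adjusted p = 0.121, exact permutation p = 0.1, no overlap). The interaction of Acadvl with treatment was 0.18 ± 0.76 (adjusted p = 0.91), which turned to -0.16 after scaling (adjusted p = 0.936). Etfa, a subunit of the flavoprotein that hands electrons to the product of Etfdh, fell (-0.74 ± 0.11, adjusted p = 0.00155), and its partner Etfb was at -0.20 ± 0.19 (adjusted p = 0.476). With saline Acadm was the single call of these lists on TPM (-0.74 ± 0.13, adjusted p = 0.025), and it was lost with scaling (-0.68, adjusted p = 0.109). With scaling Plin2 passed instead (1.55, adjusted p = 0.0364).

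The counts that follow stand against 4.37% of all genes lower and 19.6% higher on TPM, and 7.71% and 9.28% after scaling. Of 19 listed for carnitine handling and acyl-CoA activation, 16 were tested, and 5 fell and 3 rose under cisplatin (median -0.19; 4 and 3 after scaling), with the share of rises on TPM near that of all genes. Cpt1c, a brain-enriched relative of Cpt1a, rose from 0.762, 2.51 and 3.34 TPM in wild-type to 18.9, 18.8 and 7.95 TPM in FAN1KO kidneys (fold change 2.34 ± 0.40, adjusted p = 0.00343). The ligases Acsl4 (1.28 ± 0.32, adjusted p = 0.0164) and Acsl5 (1.15 ± 0.35, adjusted p = 0.0375) rose as well. Aldh9a1 of carnitine synthesis fell (-0.90 ± 0.16, adjusted p = 0.00418). So did the carnitine importer gene Slc22a5 (-0.62 ± 0.13, adjusted p = 0.00969) and the acetyltransferase gene Crat (-0.48 ± 0.12, adjusted p = 0.0178). Muscle-type Cpt1b was at 0.109 to 0.680 TPM and was not tested.

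In the malonyl-CoA list, which holds the carboxylases and AMP-activated kinase subunits that set the inhibitor of CPT1, 1 of 10 fell and 2 rose (median 0.17; 1 and 1 after scaling), also near the share of rises of all genes. Prkab1 rose (1.09 ± 0.18, adjusted p = 0.00274) and Prkag1 rose (0.49 ± 0.12, adjusted p = 0.0172), and Acsf3 fell (-0.63 ± 0.08, adjusted p = 0.00112). Acacb was at -0.25 ± 0.38 (adjusted p = 0.662) and Mlycd, which removes malonyl-CoA, at -0.30 ± 0.17 (adjusted p = 0.231).

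Among 17 tested of 18 other later mitochondrial genes, 5 fell and 1 rose (median -0.12; 6 and 0 after scaling, limma). Acat1 (-1.18 ± 0.34, adjusted p = 0.0328), Mmut (-1.01 ± 0.12, adjusted p = 0.000676) and Pcca (-0.89 ± 0.11, adjusted p = 0.000595) fell. Nudt7, whose product is peroxisomal although the gene was put in this list, rose (0.65 ± 0.21, adjusted p = 0.0439), a call that neither scaling nor voom gave. With saline, where limma did not call Nudt7, its mean was 23.3 TPM in FAN1KO and 15.0 TPM in wild-type kidneys. The saline-treated groups did not overlap (exact permutation p = 0.1), and with cisplatin the means were 23.6 and 14.6 TPM. Acat1 is a thiolase, and Pcca and Mmut act on propionyl-CoA. Acaa2, the medium-chain thiolase, was at -0.91 ± 0.39 (adjusted p = 0.112), and passed after scaling (-1.20, adjusted p = 0.0215). In the peroxisomal list 2 of 16 tested of 17 fell (median -0.48; 2 after scaling) and 0 rose (limma; 0 at an unadjusted p under 0.05). They were Ehhadh (-0.64 ± 0.19, adjusted p = 0.0321) and Scp2 (-0.59 ± 0.11, adjusted p = 0.00533). Ehhadh was not among the 2 called after scaling.

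Of 23 regulators, 3 fell (median -0.14; 6 after scaling) and 0 rose (limma; 3 at an unadjusted p under 0.05, 1 called by voom). They were the nuclear receptor genes Ppard (-1.13 ± 0.31, adjusted p = 0.0253) and Hnf4a (-0.52 ± 0.13, adjusted p = 0.0201), the latter a proximal tubule marker as well, and the mitochondrial deacetylase gene Sirt3 (-0.80 ± 0.12, adjusted p = 0.00157). Ppara, the receptor for which Cpt1a and Hadha are textbook targets, was at -0.14 ± 0.22 (adjusted p = 0.675). The coactivator gene Ppargc1a was at 0.14 ± 0.28 (adjusted p = 0.742), which turned to -0.13 after scaling. Of 18 tested of 21 other PPARα targets, 2 rose and 1 fell (median 0.34; 2 and 0 after scaling, limma), a smaller share of rises than among all genes on TPM. Of these the lipid droplet gene Plin2 (2.41 ± 0.34, adjusted p = 0.00133) and Txnip (1.55 ± 0.46, adjusted p = 0.0349) rose and Ehhadh fell. Of 16 genes for mitochondrial content 1 fell and 1 rose (median -0.01; 5 and 0 after scaling, limma), Hspd1 (-0.87 ± 0.19, adjusted p = 0.00977) and Tomm40 (0.48 ± 0.11, adjusted p = 0.0129). The median over the 10 members, -0.47, lay between those of the dehydrogenase list and of the mitochondrial content list.

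**Figure D4:**
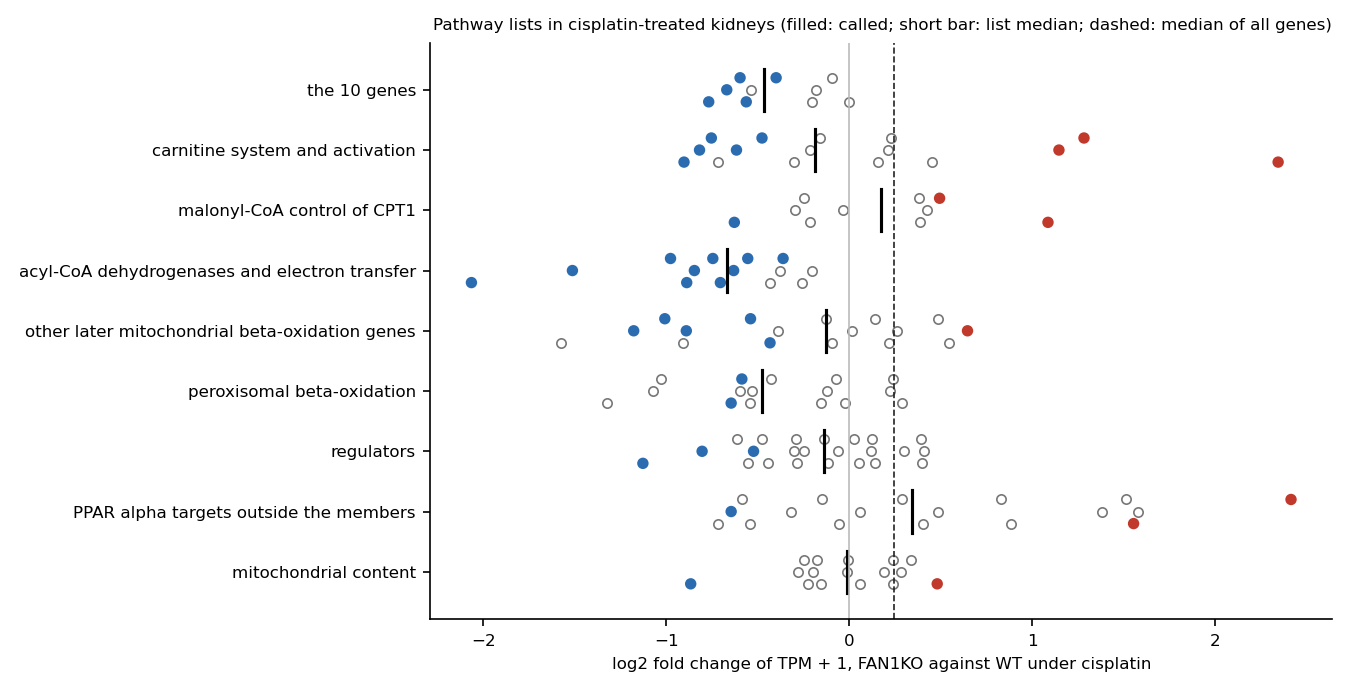
Log2 fold change of each tested gene of the 10 members and 8 pathway lists, FAN1KO against wild-type kidneys, both cisplatin-treated; filled points passed an adjusted p of 0.05 (blue lower, red higher), short bars are list medians and the dashed line is the median of all genes. Most of the dehydrogenase list lies left of the dashed line at 0.24, with a median of -0.67.

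In cisplatin against saline within FAN1KO kidneys, 4.90% of all genes fell and 34.9% rose. On TPM the dehydrogenase list had 11 lower of 14 tested, and the carnitine system 6 lower and 3 higher of 16, and both lists kept these counts after scaling. Malonyl-CoA control had 1 lower and 3 higher of 10, or 3 and 1 after scaling. The other later genes had 5 lower and 3 higher of 17, or 9 and 0 after scaling, and the peroxisomal genes 3 lower of 16, or 5. Regulators went from 4 lower and 3 higher of 23 to 9 and 0 with scaling, and mitochondrial content from 4 and 4 of 16 to 8 and 0. Of 18 PPARα targets 1 was lower and 6 were higher, a share of higher calls no larger than that of all genes on TPM. After scaling 1 was lower and 4 were higher, beside 13.7% and 15.6% of all genes. Among them Pdk4, which restrains pyruvate oxidation, rose (2.18 ± 0.52, adjusted p = 0.00848, and 1.77 after scaling, adjusted p = 0.0138), as did Angptl4 (1.90 ± 0.48, adjusted p = 0.0105, and 1.47 after scaling, adjusted p = 0.0324). In wild-type kidneys Angptl4 was higher with cisplatin by nearly as much without a call (1.68 ± 0.48, adjusted p = 0.962, exact permutation p = 0.1, no overlap). In wild-type kidneys the 8 lists had 0 calls in limma or voom, with 2 PPARα targets higher at an unadjusted p under 0.05. Both cisplatin comparisons share kidneys with the genotype comparisons above, FAN1KO kidneys in the former and wild-type kidneys in the latter.

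The genes whose profile over the 12 libraries was most like the mean z-score of the 10 members, among 8317 genes with a mean of at least 10 TPM, were Coq2 (Pearson r = 0.969), Iyd (0.916), Hbb-b1 (0.902), Hba-a1 (0.897) and Hba-a2 (0.895). Coq2 encodes an enzyme of ubiquinone synthesis and was at 104, 110.1 and 117 TPM in wild-type and 83.0, 92.4 and 89.6 TPM in FAN1KO kidneys with cisplatin. The 3 globin genes belong to red cells, and the libraries share their group structure, so these r are descriptions with no p. For Cpt1a alone the nearest were Hbs1l (0.913), Ube4b (0.889), Rab3ip (0.869), Psat1 (0.868) and Tmem125 (0.822), none of which is shared with the first set.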

How the data were processed

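RNA-seq of 12 whole mouse kidneys was analysed as TPM per NCBI Gene number, as deposited by the authors. The submitters' processing notes name mm10 and limma, and the aligner, annotation and counting are not given in the sources used here. Symbols came from RefSeq (GRCm38.p6) for 25275 of 27179 genes. Genes reaching 1 TPM in 3 or more of the 12 kidneys were fitted on log2(TPM + 1) with limma 3.58.1 in R 4.3.3: 4 group means over 12 libraries, a mean-variance trend, 5 comparisons, and Benjamini-Hochberg adjustment over 14972 genes. Single values were tested with two-sided exact permutation tests (smallest p 0.1). Fold changes on this scale understate those of low genes. Whole reads were recovered for 20794 of 20794 genes with values in at least 3 libraries, within 0.03 reads. The limma code was checked on simulated data. The genes named are Fan1, the 10 members, 12 defining genes, up to 4 called genes with the largest change in each list and comparison, the most abundant marker of each list and the 5 profiles nearest to the members' mean and to Cpt1a. Alternatives were a pseudocount of 0.1, no filter, median-ratio scaling, leaving out 15 mitochondrially encoded genes, 6-library fits, no trend, a Y-linked covariate, a replicate block and leaving out each mouse. The voom and 8-library fits were added after seeing the data. Members and lists were chosen with earlier results of these data known. Nothing says that the libraries of a group came from separate litters. The limma p-values set a difference against the spread between these mice, pooled over groups and drawn toward the mean-variance trend.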

Additional observations from a re-analysis of the deposited data

Results flagged for a closer look

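The effect of cisplatin differed between FAN1KO and wild-type kidneys for 14 named genes outside the 10 members, by limma's interaction term on log2(TPM + 1), n = 3 mice a group. Of all genes tested, 1.02% passed downward and 5.22% upward. Some of the named genes were chosen as the largest calls of a list, so the 14 is a selected count. Among dehydrogenase and electron transfer genes the difference was -0.78 ± 0.18 (adjusted p = 0.0331) for Acadm, -0.69 ± 0.15 (adjusted p = 0.0302) for Etfa, -1.01 ± 0.19 (adjusted p = 0.017) for Gcdh and -0.73 ± 0.17 (adjusted p = 0.0338) for Acad11. Around the carnitine shuttle it was -0.73 ± 0.19 (adjusted p = 0.0487) for Slc22a5 and 2.19 ± 0.57 (adjusted p = 0.0485) for Cpt1c. For the propionyl-CoA genes it was -1.03 ± 0.17 (adjusted p = 0.0134) for Mmut and -0.98 ± 0.15 (adjusted p = 0.0109) for Pcca. It was -0.69 ± 0.16 (adjusted p = 0.033) for the peroxisomal gene Scp2, -0.80 ± 0.17 (adjusted p = 0.0242) for Sirt3 and -0.64 ± 0.13 (adjusted p = 0.0219) for Iyd. The globin genes had the largest values, -6.23 ± 1.20 (adjusted p = 0.0196) for Hba-a2, -5.89 ± 1.16 (adjusted p = 0.0206) for Hba-a1 and -5.59 ± 1.09 (adjusted p = 0.0206) for Hbb-b1. After median-ratio scaling, which moved the median of all genes from 0.28 to -0.01, the difference missed the threshold for Etfa (-1.03, adjusted p = 0.0956), Gcdh (-1.35, adjusted p = 0.0597), Acad11 (-1.06, adjusted p = 0.0535), Cpt1c (1.92, adjusted p = 0.0552), Scp2 (-1.03, adjusted p = 0.075) and Sirt3 (-1.14, adjusted p = 0.0806). With voom on the recovered reads, a fit added after seeing the data, it missed the threshold for Slc22a5 (-0.75, adjusted p = 0.0505), Cpt1c (2.72, adjusted p = 0.153), Hba-a1 (-6.30, adjusted p = 0.0524) and Hbb-b1 (-5.94, adjusted p = 0.0631). Over 21 alternatives, each gene was called in 4 to 21, the fewest for Slc22a5 and Cpt1c and the most for Mmut and Pcca. Whether these differences are larger than those of the 10 members was not tested, and the member Hadh, without a call, was at -0.68.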

How the results depend on the processing

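Between cisplatin-treated genotypes, Hadh, Echs1, Cpt2 and Eci1 passed under 22 of 22 alternatives, with log2 fold changes of -1.06 to -0.69, -0.96 to -0.59, -0.88 to -0.48 and -0.85 to -0.51, and Etfdh under 15 (-0.69 to -0.31). Each group holds 3 mice and 1 library with Y-linked expression, sex is not labelled, and a setting that leaves out a mouse leaves 2 in its group, with the spread pooled over groups. Each member had at least 1320 reads in each library. The cause of the movements below was not tested.

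With median-ratio scaling, genes called lower and higher were 1155 and 1389 between cisplatin-treated genotypes, 2047 and 2333 for cisplatin against saline in FAN1KO and 1 and 15 in wild-type kidneys. The higher calls were 80 between saline-treated genotypes and 374 for the interaction. The lower members for cisplatin in FAN1KO went from 3 to 5. The members' median with saline turned to 0.021. Fold changes turned to -0.13 for Ppargc1a between cisplatin-treated genotypes, and to 0.041 for Cpt1a, 0.029 for Cpt2 and 0.012 for Hadha between saline-treated ones. For cisplatin in FAN1KO they turned to -0.32 for Cpt1a, -0.13 for Slc25a20, -0.44 for Hadha, -0.32 for Eci1 and -0.0013 for Tomm40, and for cisplatin in wild-type to -0.073 for Hadh and -0.080 for Etfdh. The log2 ratio of the members' summed TPM moved to -0.79 and -0.064 for genotype under cisplatin and saline, to -0.74 for cisplatin in FAN1KO and, turned, to -0.014 in wild-type.

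With mitochondrially encoded genes left out, genes called higher were 1829 between cisplatin-treated genotypes, 14 for cisplatin in wild-type and 446 for the interaction. Fold changes for cisplatin in FAN1KO turned to -0.019 for Cpt1a, -0.13 for Hadha and -0.020 for Eci1, and in wild-type to -0.0067 for Hadh and -0.014 for Etfdh. The log2 ratio of the summed TPM was -0.60 between cisplatin-treated genotypes, -0.44 for cisplatin in FAN1KO and 0.052 in wild-type. With no filter on low values 36 genes were lower between saline-treated genotypes. Fits of only the 6 libraries compared called 1721 higher between cisplatin-treated genotypes, 16 lower and 11 higher between saline-treated ones, and 0 higher for cisplatin in wild-type (limma).

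With the Y-linked covariate, genes called lower and higher were 1288 and 6035 between cisplatin-treated genotypes, 248 and 173 between saline-treated ones, 1222 and 7919 for cisplatin in FAN1KO, 1 and 57 in wild-type and 646 and 4088 for the interaction, where 4 members passed. Slc25a20 between cisplatin-treated genotypes turned to 0.0094. In the 8 libraries without Y-linked expression, a choice made after seeing the data, 1162 genes were lower between cisplatin-treated genotypes. The lower and higher calls were 178 and 117 between saline-treated ones, 3 and 60 for cisplatin in wild-type and 434 and 2004 for the interaction, with 4 members. For cisplatin in FAN1KO they gave 1256 lower genes and 1 higher member, Cpt1a. Fold changes turned to -0.17 for Hadha and -0.065 for Eci1 there, -0.046 for Etfdh for cisplatin in wild-type and 0.14 for the interaction of Cpt1a. With limma's voom on the recovered reads, also chosen after seeing the data, Hadha for cisplatin in FAN1KO turned to -0.049 and Etfdh for cisplatin in wild-type to -0.0084.

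Blocking on the replicate number, genes called lower and higher were 29 and 32 between saline-treated genotypes and 73 and 351 for the interaction, and 0 rose with cisplatin in wild-type. The members called did not change. Deviations of same-numbered libraries correlated with a mean r of -0.24, -0.21, -0.14 and -0.18 in the 4 comparisons of 2 groups. Single r ran widely, from -0.61 to 0.51 for genotype with saline and from -0.60 to 0.60 for cisplatin in wild-type. Y-linked libraries carry unlike numbers in the groups of each comparison, so these r cannot tell whether the numbers pair the mice.

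Leaving out 1 mouse at a time gave, for genes called lower and higher, 370 to 694 and 1169 to 3144 between cisplatin-treated genotypes, 19 to 72 and 22 to 57 between saline-treated ones, 482 to 786 and 3140 to 5607 for cisplatin in FAN1KO, and 51 to 216 and 217 to 981 for the interaction. The lowest counts came without FAN1KO cisplatin 1 between cisplatin-treated genotypes, for cisplatin in FAN1KO and, level with those without FAN1KO cisplatin 2, for the lower interaction calls. Between saline-treated genotypes and for the higher interaction calls they came without wild-type saline 1 or 2. For cisplatin in wild-type 0 to 41 rose, the highest without wild-type cisplatin 1. The members passing the interaction were 0 to 2, the most without FAN1KO cisplatin 3 (Cpt2 and Etfdh). Between cisplatin-treated genotypes, fold changes whose sign turned ran from -0.26 to 0.15 for Slc25a20, -0.39 to 0.022 for Fan1, -0.34 to 0.11 for Ppara and -0.0039 to 0.22 for Ppargc1a. Between saline-treated ones the members' median ran from -0.14 to 0.013, Cpt1a from -0.16 to 0.071, Cpt2 from -0.12 to 0.068, Slc25a20 from -0.0072 to 0.24, Hadh from -0.20 to 0.011 and Hadha from -0.29 to 0.16. For cisplatin in FAN1KO, Hadha ran from -0.20 to 0.11. For cisplatin in wild-type, Hadh ran from -0.055 to 0.12, Hadha from -0.11 to 0.43, Hadhb from -0.18 to 0.14 and Etfdh from -0.074 to 0.080. For the interaction, Cpt1a ran from -0.16 to 0.066, Slc25a20 from -0.37 to 0.037 and Hadha from -0.43 to 0.11.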
